A study of Mus musculus with 2 samples.

Results

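Olfr2, Olfr17 and Olfr6 encode the mouse odorant receptors known as I7, P2 and M50, and they were picked out by gene name as 3 of the 1112 olfactory receptor (Olfr) entries in the deposited table. The RefSeq gene table lists I7, P2 and M50 as synonyms of these same 3 genes. RNA was sequenced from the olfactory epithelium of adult C57BL/6 mice, in 2 samples that are both titled and genotyped as wild type. The second sample is described as 3bko, a term that the sources used here do not explain. The table gives each entry a level, in FPKM (sequenced fragments scaled to the length of the gene and to the size of the library), which is not assigned to either sample. Every row of the table carries both wt and 3bko as its sample names, so a value may come from the first sample, the second or both, and the values below have no replicates, no replicate error and no test. Sequencing depth is unknown.

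Odorant receptors are G protein-coupled receptors, and each olfactory sensory neuron expresses a single receptor gene from the large Olfr family. Neurons that express the same receptor send their axons to common glomeruli in the olfactory bulb, and the receptor itself takes part in choosing that target. P2 is the receptor whose gene was tagged to make such axons visible, and swaps of its coding sequence were used to move the glomerulus. I7 is known as a receptor for octanal and related aldehydes, and was among the odorant receptors first matched to a ligand. In a whole tissue, a low value can come from fewer neurons that choose a receptor or from less RNA in each of them, and these cannot be told apart here.

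The 3 genes lie within 142 kb of chromosome 7 (mm9, coordinates of the deposited table). Olfr6 lies at chr7:114099498-114100448, Olfr2 at chr7:114144389-114146119 and Olfr17 at chr7:114240981-114241928. That stretch holds 6 Olfr entries, which are Olfr6, Olfr711, Olfr2, Olfr713, Olfr714 and Olfr17 in order of position. They fall into a pair of receptor families by their MOR names. Olfr6, Olfr711 and Olfr2 belong to MOR103 and are annotated on the minus strand. Olfr713 (P3), Olfr714 (P4) and Olfr17 belong to MOR263 and are annotated on the plus strand. Strand, exon and transcript features are those of GENCODE M21, an annotation of a later build from which no coordinates are used.

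The coding stretch around the Asp-Arg-Tyr motif, a hallmark of odorant receptors at the inner end of the third membrane segment, is printed to show how far neighbours of the same family differ in a part that odorant receptors conserve. Each stretch is 60 bases of the coding strand from 5′ to 3′, read from a GENCODE M21 transcript, and capitals mark the positions that are not identical in all 3 genes of the family. In MOR103 these are 18 of the 60 positions.
Olfr6 (M50): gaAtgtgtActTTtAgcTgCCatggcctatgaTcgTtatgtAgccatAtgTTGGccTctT
Olfr711: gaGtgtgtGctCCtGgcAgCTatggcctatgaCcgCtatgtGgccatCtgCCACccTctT
Olfr2 (I7): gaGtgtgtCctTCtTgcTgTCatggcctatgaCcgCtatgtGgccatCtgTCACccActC

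In MOR263 the positions that are not shared number 9 of 60, and the stretches of P3 and P4 differ by 1 base from each other and by 9 each from that of P2.
Olfr17 (P2): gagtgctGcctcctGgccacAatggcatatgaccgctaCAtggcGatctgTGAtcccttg
Olfr713 (P3): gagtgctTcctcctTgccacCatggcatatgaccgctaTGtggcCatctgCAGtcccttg
Olfr714 (P4): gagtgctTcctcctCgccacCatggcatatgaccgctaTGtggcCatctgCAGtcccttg

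Over the whole translated coding sequence, Olfr6 and Olfr2 were 56.3% identical, Olfr6 and Olfr17 were 45.8% identical, and Olfr2 and Olfr17 were 45.1% identical. The closest relative of Olfr6 among 1074 Olfr proteins compared was its neighbour Olfr711, at 74.2%. The closest relative of Olfr17 was Olfr713, at 73.2%, followed by Olfr714 at 72.6%. The closest relative of Olfr2 was not a neighbour but Olfr524, a MOR103 gene elsewhere on chromosome 7, at 62.1%.

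The distance between these sequences bears on how reads are assigned. All 50-base stretches of the coding sequences of Olfr6, Olfr2 and Olfr17 were unique among the annotated Olfr transcripts, on both strands. With transcripts read in the sense direction only, the longest stretch that Olfr6 shared exactly with another Olfr gene was 24 bases, with Olfr1340. It was 28 bases for Olfr17, shared with Olfr510, and 35 bases for Olfr2, shared with Olfr1378. By contrast, 84.6% of the 50-base stretches were unique in Olfr713 and in Olfr714, with the remainder shared between the pair, so the split of reads between P3 and P4 is uncertain. No other annotated gene overlaps an exon of Olfr6, Olfr2 or Olfr17.

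The 3 receptors spanned more than an order of magnitude in level. Olfr6 had an FPKM of 28.7 and ranked 5 of 1112 entries. Olfr17 had an FPKM of 8.77 and ranked 80. Olfr2 had an FPKM of 2.17 and ranked 366. The status was OK for each of them, as for 909 of the 1112 entries. Olfr6 was thus 3.27-fold above Olfr17 and 13.2-fold above Olfr2, and Olfr17 was 4.05-fold above Olfr2. Against the median of all entries, 1.09, Olfr6 was 26.4-fold higher, Olfr17 8.07-fold and Olfr2 1.99-fold. In terms of position, 99.6% of entries lay below Olfr6, 92.8% below Olfr17 and 67.1% below Olfr2. Without replicates, whether the order of these levels holds between animals could not be tested.

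**Figure D1:**
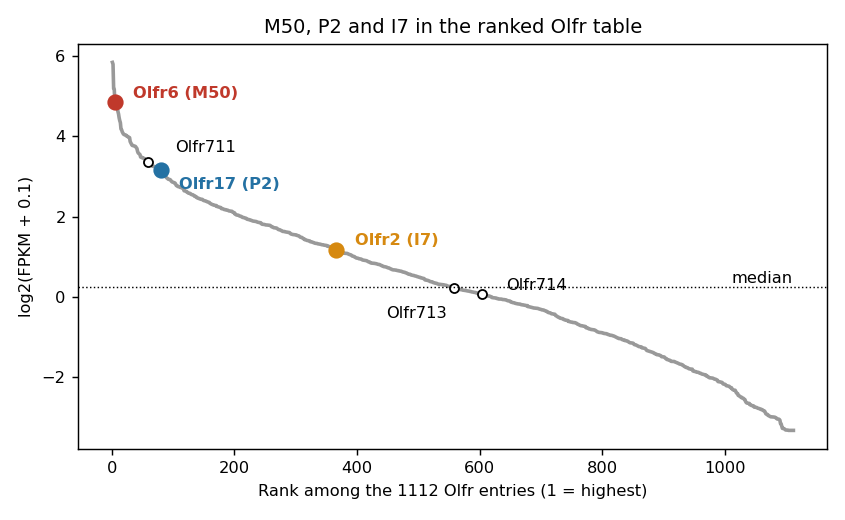
The level of every Olfr entry, as log2(FPKM + 0.1), is plotted against its rank among the 1112 entries, with the dotted line at the median. Olfr6 (rank 5), Olfr17 (rank 80) and Olfr2 (rank 366) are filled, and the related neighbours Olfr711, Olfr713 and Olfr714 are open circles at ranks 59, 558 and 604.

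In the ranking by FPKM, entries from several chromosomes stood next to the 3 genes. Above Olfr6 came Olfr166 on chromosome 16 at 36.5 and Olfr1507 on chromosome 14 at 36.0, and below it Olfr1384 on chromosome 11 at 27.5 and Olfr536 at 26.8. Olfr6 stood 7.38 below the next higher entry and 1.20 above the next lower. Around Olfr17 the values were close, with Olfr220 at 8.81, Olfr211 at 8.80, Olfr1018 at 8.77 and Olfr191 at 8.64. Around Olfr2 they were close too, with Olfr1079 and Olfr1318 at 2.19, Olfr272 at 2.16 and Olfr1298 at 2.15. The ranks of Olfr17 and Olfr2 therefore rest on much smaller differences in FPKM than that of Olfr6. The highest entry of the table, Olfr533, had 57.2.

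The gene model behind each value differs. The deposited loci of Olfr6 and Olfr17 are 951 and 948 bases, the lengths of their coding sequences, so their FPKM covers coding sequence only. The locus of Olfr2 spans 1731 bases. A GENCODE transcript of that same span has 2 exons with 1250 bases in all, of which 984 are coding, and the sources used here do not say whether the authors' model was the same. Among the 757 entries whose locus is as long as the coding sequence, Olfr6 ranked 3 and Olfr17 ranked 56. Among the other 355 entries, Olfr2 ranked 115. The median FPKM was 1.09 in each kind of entry.

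The longest coding transcript annotated for each of the 3 genes is longer than the locus that was quantified. Each gene also has a shorter annotated coding transcript whose span is as long as that locus. The longest coding transcript of Olfr6 has 6834 nt in 6 exons, with a 5′ untranslated region (UTR) of 3150 nt and a 3′ UTR of 2733 nt. That of Olfr2 has 6178 nt in 4 exons, with UTRs of 578 and 4616 nt. That of Olfr17 has 3666 nt in 2 exons, with UTRs of 1324 and 1394 nt. Over 1093 annotated Olfr genes the median was 2904 nt and 2 exons, so all 3 transcripts are longer than the median. In exon number, Olfr6 is among 3 genes with 6 or more, Olfr2 among 83 with 4 or more, and Olfr17 has the most common number, shared by 56.6% of the genes. Annotation differs between transcripts of the same gene, since the 4 coding transcripts of Olfr6 include one of 7 exons and a model of coding sequence alone.

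**Figure D2:**
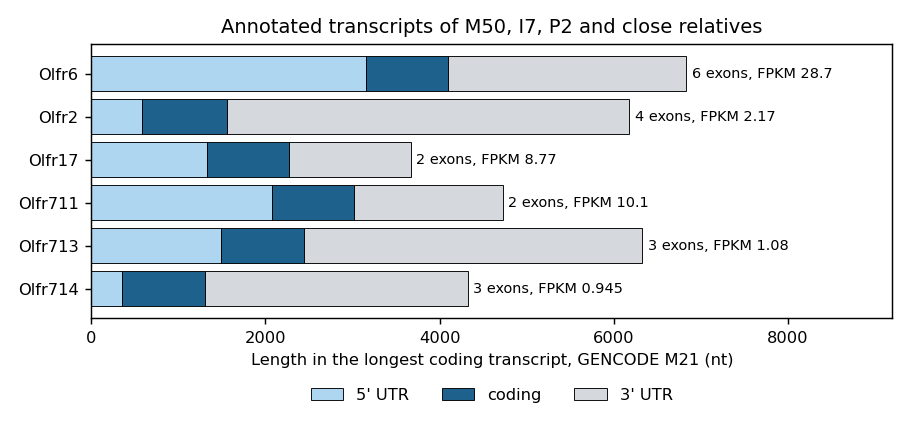
Bars give the lengths in nucleotides of the 5′ UTR, the coding part and the 3′ UTR in the longest coding transcript of each gene, with the exon number and the FPKM beside each bar. The coding parts, 945 to 984 nt, are nearly equal, while the UTRs differ most, from 351 nt (Olfr714) to 3150 nt (Olfr6) on the 5′ side.

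Olfr6 was the highest of its chromosomal neighbours. The chromosome 7 window around the 3 genes holds 66 entries, from 113.8 to 116.0 Mb, with a median FPKM of 0.724. Of these, 28 (42.4%) reached 1, against 38.6% on all of chromosome 7 and 52.5% of all 1112 entries. Olfr6 ranked 1 in this window, followed by Olfr711 at 10.1, Olfr705, a MOR283 gene, at 9.83 and Olfr17 at 8.77, while Olfr2 ranked 17. The lowest were Olfr474, listed at 0, Olfr504 at 0.000592 and Olfr503 at 0.0118. The status was NOTEST and not OK for these 3, and for 19 of the 66 entries in all. Olfr6 alone made up 21.9% of the summed FPKM of the window, Olfr17 6.71% and Olfr2 1.66%. Relative to the median of the other entries, 0.723, Olfr6 was 39.7-fold higher, Olfr17 12.1-fold and Olfr2 3.00-fold. On the log2(FPKM + 0.1) scale these differences were 5.13, 3.43 and 1.46. On all of chromosome 7, with 236 entries, Olfr6 ranked 2, Olfr17 15 and Olfr2 50.

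The window is split by a gap of 666 kb without Olfr entries, and the genes on its sides had different levels. The 24 entries on the side of Olfr6, Olfr2 and Olfr17, from 113.8 to 114.3 Mb, had a median FPKM of 1.94. Of these, 79.2% reached 1, against 52.5% of all entries in the table. The 42 entries beyond the gap, of which 31 are MOR204 genes, had a median of 0.394 and 21.4% reached 1. The status was NOTEST for 18 of these 42 entries and for 1 of the 24 on the near side. The division at the gap was made after the values were seen. Set against the near side alone, Olfr6 was 16.7-fold above the median of the others, 1.71, and Olfr17 was 5.12-fold above it. Olfr2 was 1.26-fold above it and ranked 12 of 24, in the middle of its group. Among the 10 nearest entries Olfr2 lay below the median, by -0.12 on the log2 scale, so its place relative to its neighbours depended on how many of them were included.

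**Figure D3:**
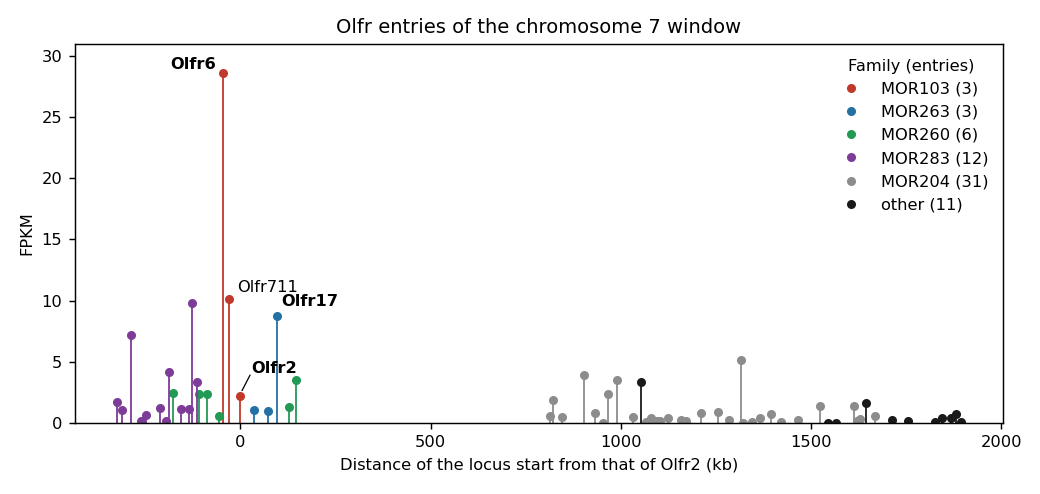
Each vertical line is an Olfr entry of the chromosome 7 window, placed by the distance of its locus start from that of Olfr2 in kb, with its FPKM as height and its family as colour. Olfr6 stands at 28.7, followed by Olfr711 at 10.1, the MOR283 gene Olfr705 at 9.83 and Olfr17 at 8.77, and the MOR204 entries beyond the 666 kb gap reach 5.11 at most.

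The level of Olfr6 was far from that of the gene before it. Olfr710, a MOR260 gene that ends 7.67 kb before Olfr6 and is annotated on the same strand, had an FPKM of 0.588, which is 48.8-fold below Olfr6. This step of 5.39 on the log2(FPKM + 0.1) scale ranked 7 among 948 pairs of adjacent Olfr entries less than 50 kb apart, whose median absolute step was 1.37. Farther out on that side, Olfr1532-ps1, which is marked as a pseudogene, had 2.34 and Olfr707 had 2.39, both MOR260 entries. On the other side Olfr711 followed at 10.1, a step of -1.49, and Olfr2 after it at 2.17, a step of -2.17. The 3 MOR103 genes in a row thus had their highest value at one end and their lowest at the other. The loci of Olfr710, Olfr711 and Olfr2 span 4246, 4084 and 1731 bases, against 951 for Olfr6. These steps therefore compare unlike gene models, and the ranked pairs mix gene models too.

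In MOR263 the highest of the 3 neighbours was the last by coordinate. Olfr713 (P3) had an FPKM of 1.08 and Olfr714 (P4) had 0.945, and Olfr17 (P2), whose locus starts 23.6 kb beyond that of P4, was 8.15-fold above P3 and 9.28-fold above P4. The step from P4 to P2 was 3.09 on the log2(FPKM + 0.1) scale and larger than 86.5% of the adjacent pairs. The next entries were Olfr715 at 1.30 and Olfr716 at 3.52, both MOR260 genes, and then, beyond the gap, Olfr467 at 0.523. P2 was therefore above each of the 3 entries on either side of it. Reads that P3 and P4 share are a limit on the values of that pair and not on that of P2.

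Olfr6 and Olfr17 were each the highest gene of their family. MOR103 has 17 entries, on chromosomes 1, 6, 7 and 14, with a median FPKM of 4.42. Of these, 16 reached 1, against 52.5% of all Olfr entries. After Olfr6 at 28.7 came Olfr1348 at 21.9 and Olfr449 at 16.2. The lowest were Olfr522 at 2.02, Olfr1416 at 1.67 and Olfr750 at 0.845. Olfr2 was just above these 3, at rank 14 of 17 in its family, with 13 relatives higher than it. On the log2(FPKM + 0.1) scale Olfr6 lay 2.79 above the median of the other family entries, and Olfr2 differed from the median of its others by -1.03. Olfr2 was thus above the median of all Olfr entries and below that of its MOR family. Its direction turned to 0.69 above the median when the family was replaced by the 425 entries whose translated sequence is at least 40% identical. That broad set had a median FPKM of 1.30, near the 1.09 of all entries, and is not a narrow group of relatives.

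MOR263 has 10 entries, 3 on chromosome 7 and the rest on chromosome 17, with a median FPKM of 2.63. Olfr17 at 8.77 was followed by Olfr121 at 5.96 and Olfr122 at 4.18. The lowest were Olfr713 at 1.08, Olfr118 at 0.955 and Olfr714 at 0.945. The family's highest gene and 2 of its 3 lowest are therefore neighbours on chromosome 7. Olfr17 lay 2.02 above the median of the other 9 on the log2(FPKM + 0.1) scale.

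Other receptors with a place in work on axon targeting had levels from 0.164 to 36.0, a range that takes in all 3 genes. In a list of 10 such receptors, Olfr1507 (MOR28) at 36.0 was above Olfr6, and Olfr15 (MOR256-17) followed at 26.0. Olfr17 came next, ahead of Olfr1508 (MOR10) at 3.15 and Olfr2 at 2.17. Below Olfr2 were Olfr160 (M72) at 1.79, Olfr16 (MOR23) at 1.38, P3 and P4, Olfr78 (MOR18-2) at 0.866, Olfr545 (S50) at 0.365 and Olfr151 (M71) at 0.164, the last with the status NOTEST. Some of these values are uncertain because reads can be shared. The unique share of 50-base coding stretches was 59.7% for Olfr160 (with Olfr151), 82.1% for Olfr1507 and 81.9% for Olfr1508 (with each other) and 61.5% for Olfr545, and Olfr78 has the same locus and value as Olfr560. The median of the 10 was 1.23. On the log2(FPKM + 0.1) scale Olfr6 lay 4.44, Olfr17 2.75 and Olfr2 0.78 above it.

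**Figure D4:**
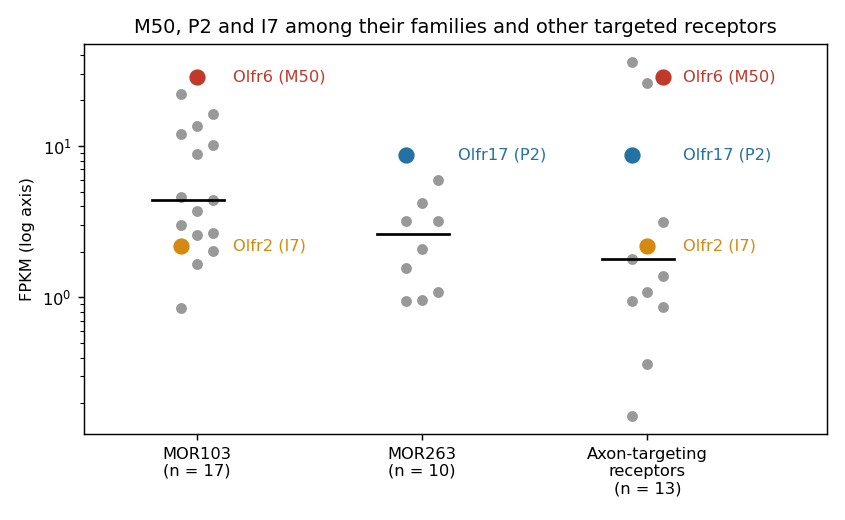
Points are FPKM values on a log axis for the 17 MOR103 entries, the 10 MOR263 entries and the 13 receptors of axon-targeting work (the list of 10 with Olfr6, Olfr17 and Olfr2), and horizontal lines are medians. Olfr6 and Olfr17 top their families, Olfr2 lies at 2.17 below the MOR103 median of 4.42, and points are offset sideways only to keep them apart.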

How the data were processed

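RNA-seq of olfactory epithelium was analysed from a single table of Olfr entries. The authors deposited 1 FPKM value per entry, per the file headers. TopHat2, Bowtie2, Cuffdiff and the build mm9 are named in the submitters' processing notes, and the sources used here do not give versions, the gene annotation, the read length or how multi-mapping reads were handled. Locus starts count from 0 in the table, and 1 was added. The column is not tied to a sample, so both samples form 1 group without replicate values and no test was run. No count or interval of counting error could be recovered.

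Ranks, medians and differences in log2(FPKM + 0.1) were computed with Python 3.11.15, pandas 2.3.3 and scipy 1.17.1, and checked on data made with known answers. The added 0.1 shrinks differences between low values. Families are MOR synonyms in the RefSeq table (GRCm38.p6), which matched 1092 entries by symbol and 12 by an older symbol. GENCODE M21 (GRCm38) held 1095 entries and gave transcripts, taking the longest coding one. Coding sequences were translated and aligned globally with Biopython 1.88 (BLOSUM62), with identity over all aligned columns. Genes named are Olfr2, Olfr17 and Olfr6, the 3 entries on each side of them, the 2 next above and below in FPKM, the 3 highest and lowest of the window and families, the closest proteins, the axon-targeting list and the highest entry; Olfr1340, Olfr510 and Olfr1378, which share the longest stretches, and Olfr560, which shares a locus, were named after these comparisons were seen. The members and lists were chosen with earlier results of these data known. None of 21 listed marker and axon guidance genes is in the table, so the tissue was not checked against markers.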

Additional observations from a re-analysis of the deposited data

How the results depend on the processing

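Of 56 alternative values for 12 results, 54 kept their direction, and both exceptions concern Olfr2. A change of pseudocount keeps the order of the entries and could hardly reverse a direction. The shares of entries below a gene could hardly reverse either. Neither kind of value tested direction, so the count of 54 says little about stability. A value was taken as moved when it left the 95% binomial interval of the share or of the comparison median. This interval treats entries as random draws and holds no replicate or counting error. For the axon-targeting list it was wide, from -3.52 to 2.29 for Olfr2, so staying within it says little there. The share of entries below Olfr6 and Olfr17 stayed within the interval of the share under each alternative run. That below Olfr2 was 59.7% among entries of status OK, 64.0% among entries at FPKM 0.1 or more and 63.7% among class II entries, since these settings drop low entries. Against the chromosome 7 neighbours, on the log2 scale, a pseudocount of 1 gave 4.11 for Olfr6 and 2.50 for Olfr17. The 10 nearest entries gave 3.61 for Olfr6, 1.91 for Olfr17 and -0.12, reversed, for Olfr2. Window entries of status OK gave 4.48, 2.79 and 0.82 in the same order, and the near side of the gap, chosen after seeing the data, gave 3.99, 2.29 and 0.32; each of these sets has a higher median. Against all proteins at least 40% identical in place of the family, also chosen after seeing the data, Olfr6 was 4.36 higher and Olfr2 reversed to 0.69, a set of 420 and 425 entries with a median near 1.30. With family entries of the window alone, Olfr2 was at -2.92, against Olfr6 and Olfr711 only. The identity to RefSeq proteins was not run and GENCODE translations took its place. FPKM times locus length was not run for Olfr2, whose locus is not a coding block. Values without replicate 1 or 2 were not run, and no paired analysis was possible because the table holds 1 value per gene. Depth is unknown, so counting error could not be given.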
